A study of Mus musculus with 8 samples.

Results

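Contacts of H3K27ac-marked chromatin at the transcription starts of 8 genes of the LIF and STAT3 pathway, Lifr, Il6st, Jak1, Stat3, Socs3, Pim1, Gbx2 and Junb, were measured in 4 lines of mouse embryonic stem cells. H3K27ac is acetylation of lysine 27 of histone H3, found at active promoters and enhancers, and HiChIP joins and counts DNA ends that lie close together where one of them carries the mark. A loop is a pair of anchors, merged regions of 5-kb bins, with a count of read pairs in each library. Member loops had at least 1 anchor within 5 kb of an annotated GRCm38 start of 1 of the 8 genes. They numbered 481 of the 415681 loops listed, and 81 of them had enough counts to be tested, among 44706 tested loops in all.

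Leukaemia inhibitory factor (LIF) holds mouse embryonic stem cells in self-renewal in culture. It binds the receptor LIFR, which pairs with the shared signalling chain gp130, encoded by Il6st. The kinase JAK1 on this receptor phosphorylates STAT3, which enters the nucleus and binds palindromic TTCNNNGAA elements near target genes, among them Socs3, whose product in turn inhibits JAK kinases and gp130.

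The B6 line (B6 5-1) came from strain C57BL/6J, and the D2 line (D2 5-5) from DBA/2J. The B6-13D2 line carried the B6 genome with an interval of chromosome 13 from D2, B6.D2-(rs30079041-rs51756099)/Bakr, and the reciprocal D2-13B6 line carried the D2 genome with a B6 interval. For D2-13B6 the labels name rs13469455 and the series' design text rs51756099 as the second marker of that interval. All lines shared one medium, with serum, LIF, the MEK inhibitor PD0325901 at 1 µM and the GSK3 inhibitor CHIR99021 at 3 µM, so no sample lacked LIF. Each genotype was 1 line with 2 technical replicates, and p-values therefore measure only the spread between libraries of a line. The interval effect is the D2 allele (B6-13D2 and D2) minus the B6 allele (B6 and D2-13B6) of the interval, averaged over backgrounds. The background effect is the D2 background (D2 and D2-13B6) minus the B6 background (B6 and B6-13D2), and the interaction subtracts the interval effect seen in B6 background from the one seen in D2 background.

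Levels are in CPM, counts scaled to the library total, here with the TMM factors of edgeR unless another total is named. Library totals ran from 737955 to 1425304 counts, and member loops held 0.206% to 0.259% of them. In D2-13B6, chromosome 11 took 13.9% and 14.0% of the counts, against 10.05% to 10.61% in the other 6 libraries. Stat3 and Socs3 lie on chromosome 11, so their values are also given as CPM with the counts of that chromosome alone as the total (chromosome 11 CPM) and from a fit that scaled each chromosome separately. The 2 B6 libraries stood apart from each other at several members, as given with those members below. All 15 naive stem cell markers on a fixed list had loops at their starts, with summed levels of 5620 to 7550 CPM in a library and means of 5970 CPM for B6, 6160 for B6-13D2, 7220 for D2-13B6 and 6170 for D2. On this scale the line D2-13B6, highest here, was also highest at Socs3 and Lif below. In chromosome 11 CPM, B6 had the higher mean at Lif (1748, against 1622 in D2-13B6). The part of the higher marker level of D2-13B6 in the Socs3 and Lif results was not tested. The 4 mesoderm and 4 neural markers had no loops. Of 5 primitive endoderm markers only Pdgfra had loops (4.5 to 12.5 CPM), of 4 trophoblast markers only Cdx2 (8.01 to 15.0 CPM), and of 7 fibroblast markers 4 had them, with summed levels of 54.0 to 91.5 CPM. Of 4 formative or primed markers Otx2 and Lef1 had loops and Fgf5 and Pou3f1 none. Their sum moved with the background, at a mean of 60 CPM for B6 and 67.1 for B6-13D2 against 85.8 for D2-13B6 and 99.7 for D2, and its part in the background effects below was not tested.

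Of the 8 members, 7 had loops. Jak1 had none, and its nearest anchor lay 25.1 kb from any of its annotated starts and 79.7 kb from the start at chr4:101265282. Pairs of bins that were not in a listed loop have no count, so this gives no level for Jak1. The other members had 36 (Il6st), 40 (Gbx2), 69 (Junb), 75 (Stat3), 80 (Pim1), 86 (Socs3) and 95 (Lifr) loops. Anchor widths differed, from 10 kb at Il6st to 70 kb at Pim1, so levels were compared between genes only over the single 5-kb bin of each start. On that equal length Junb had a median of 112 CPM over the 8 libraries and Pim1 a median of 109 CPM. Their ranges, 83.4 to 139 CPM and 85.0 to 135 CPM, overlapped. Lifr followed at 66.0, Stat3 at 52.0, Il6st at 39.0 and Socs3 at 35.0 CPM, each overlapping the range of its neighbour in this order. The lowest Pim1 library was above the highest Lifr library (77.2 CPM). Gbx2 was lowest, at 12.4 CPM, and its highest library (21.3 CPM) lay below the lowest of Socs3 (27.4 CPM). Only pairs in listed loops have a count, so the bins that a start bin could pair with still depended on anchor width. At Pim1, 612 of the 947 start-bin counts paired with bins inside its own 70-kb anchor. The 10-kb anchor of Il6st can hold no such pair. The part of anchor width in this order of genes was not tested.

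The members also differed in what they contacted. Contacts inside 1 anchor made up 64.9% of the counts at Pim1 and 41.8% at Lifr. At Lifr another 34.2% joined its own 3 anchors to each other. Over all loops of the table, each counted once, the inside share was 32.0%. That is not a like measure, since a loop between anchors counts toward the genes at either end. The part of anchor width in the inside shares was not tested. Anchors near the start of another coding gene took 69.0% of the Socs3, 61.3% of the Stat3 and 59.8% of the Junb counts. Anchors with no coding start took 84.0% at Il6st and 76.5% at Gbx2. The Il6st anchor is too narrow to hold a listed pair, since listed bins start at least 10 kb apart.

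**Figure D1:**
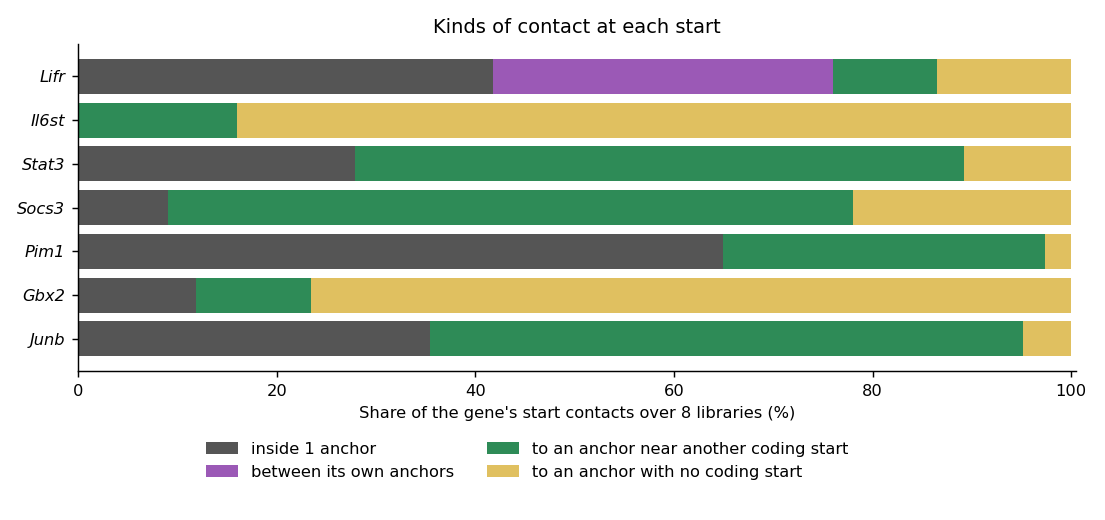
Share of each gene's start contacts, summed over 8 libraries (x axis, %), that lie inside 1 anchor, between the gene's own anchors, at anchors near another protein-coding start, or at anchors with no coding start. Pim1 has the greatest inside share of the 7 genes at 64.9%, and Il6st and Gbx2 contact mainly anchors with no coding start, at 84.0% and 76.5%.

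The letters of the STAT element were searched in the sequence of these anchors. TTCNNNGAA and its narrower form TTCCNGGAA, which it contains, read the same on both strands. Of 41525 windows of 250 bases before protein-coding starts, 6.95% held the first and 0.956% the second. Among windows of the members only that of Socs3 held either. The Socs3 anchor, chr11:117960001-117980000, held 4 matches to TTCCNGGAA, against a mean of 0.653 over the 1074 anchors of its width, of which 48.0% held at least 1. Its most counted partner, chr11:117995001-118015000, held 2. The anchor at the main Lifr start also held 2, against a mean of 0.78 over 564 anchors of its width, and the Pim1 anchor 3, against 2.35 over 17 anchors. The other 2 Lifr anchors and the Socs3 partner at the Pgs1 start held no TTCCNGGAA. Of TTCNNNGAA, chr15:7075001-7090000 at Lifr held 11 and chr15:7155001-7170000 held 1, against a mean of 5.04 at their width. The anchor at the Pgs1 start held 2 (mean 1.87). Members without a called contact had TTCCNGGAA matches too: the Gbx2 anchor held 2 (mean 0.421 at its width), that of Junb 2 (mean 0.91), and those of Stat3 and Il6st 1 each. Shown are sites at the genes whose contacts were called below (GRCm38, strand of the gene, 5′ to 3′), with the match in capitals and its distance from the start. The other 3 Socs3 matches lay 6.56 to 8.68 kb downstream of the start. A match is a description of letters, and binding was not measured.
Socs3, chr11:117969229-117969257, 57 bases upstream: ggccgggcagTTCCAGGAAtcggggggcg
Socs3 partner, chr11:117995473-117995501, 26.3 kb upstream: tccatgaggaTTCCAGGAAgatgatctca
Socs3 partner, chr11:118011659-118011687, 42.5 kb upstream: atatcctcaaTTCCAGGAAttaatggctt
Lifr, chr15:7126476-7126504, 3.07 kb upstream: ccaacagttcTTCCAGGAAgacagcatgc
Lifr, chr15:7115507-7115535, 14.0 kb upstream: tggggagagaTTCCAGGAAatgaaacaac
Pim1, chr17:29499723-29499751, 8.98 kb downstream: cccacgtggaTTCCAGGAAccaaacccaa
Pim1, chr17:29446443-29446471, 44.3 kb upstream: tcggagcagaTTCCTGGAAaagacttctg
Pim1, chr17:29430716-29430744, 60023 bases upstream: ggctatcaaaTTCCTGGAAcacagcaggg
RefSeq begins Socs3 further upstream than the GENCODE start used above, and the 250 bases before the RefSeq start hold 1 TTCNNNGAA match, in capitals, which is not of the narrower form. Over 32851 RefSeq promoters 7.02% held one.
Socs3 RefSeq promoter, chr11:117969367-117969616, minus strand: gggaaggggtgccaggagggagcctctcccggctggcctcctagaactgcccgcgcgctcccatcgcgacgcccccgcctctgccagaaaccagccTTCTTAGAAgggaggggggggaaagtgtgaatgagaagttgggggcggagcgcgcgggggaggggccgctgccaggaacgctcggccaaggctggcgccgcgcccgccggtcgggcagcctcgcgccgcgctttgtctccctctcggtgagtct

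Differences between lines were tested for the summed counts of each member's loops, here called start contacts, and for single loops. FDR is the Benjamini-Hochberg adjusted p of edgeR's quasi-likelihood test over all 11627 genes or 44706 loops tested, and a value is called when its FDR is under 0.05. Fold changes are log2 values with their standard error (SE). In bulk libraries a contact made in fewer cells and a contact made less often per cell cannot be told apart. The submitters' processing notes name mm10, a build of the B6 genome, and the part of aligning D2 reads to it in the background effect and in D2 against B6 was not tested.

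In the background effect, 2 of the 7 members were called, Pim1 lower and Socs3 higher in D2 background, where 24.2% of all genes tested were called. In the interval effect 2 of 7 were called, Lifr higher and Socs3 lower with the D2 allele, against 8.77% of all genes. Only Lifr was called in B6-13D2 against B6, where 5.7% of genes were. The comparison of D2 with D2-13B6 called only Socs3, and 8.95% of genes. The interaction was called for Pim1 alone, against 6.92% of genes. In D2 against B6, edgeR called 0 of the 7, against 10.3% of genes, with 1 at an unadjusted p under 0.05, and DESeq2 also called 0. With 7 genes, 1 call is 14.3%, so these counts do not set the members apart from other genes.

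**Figure D2:**
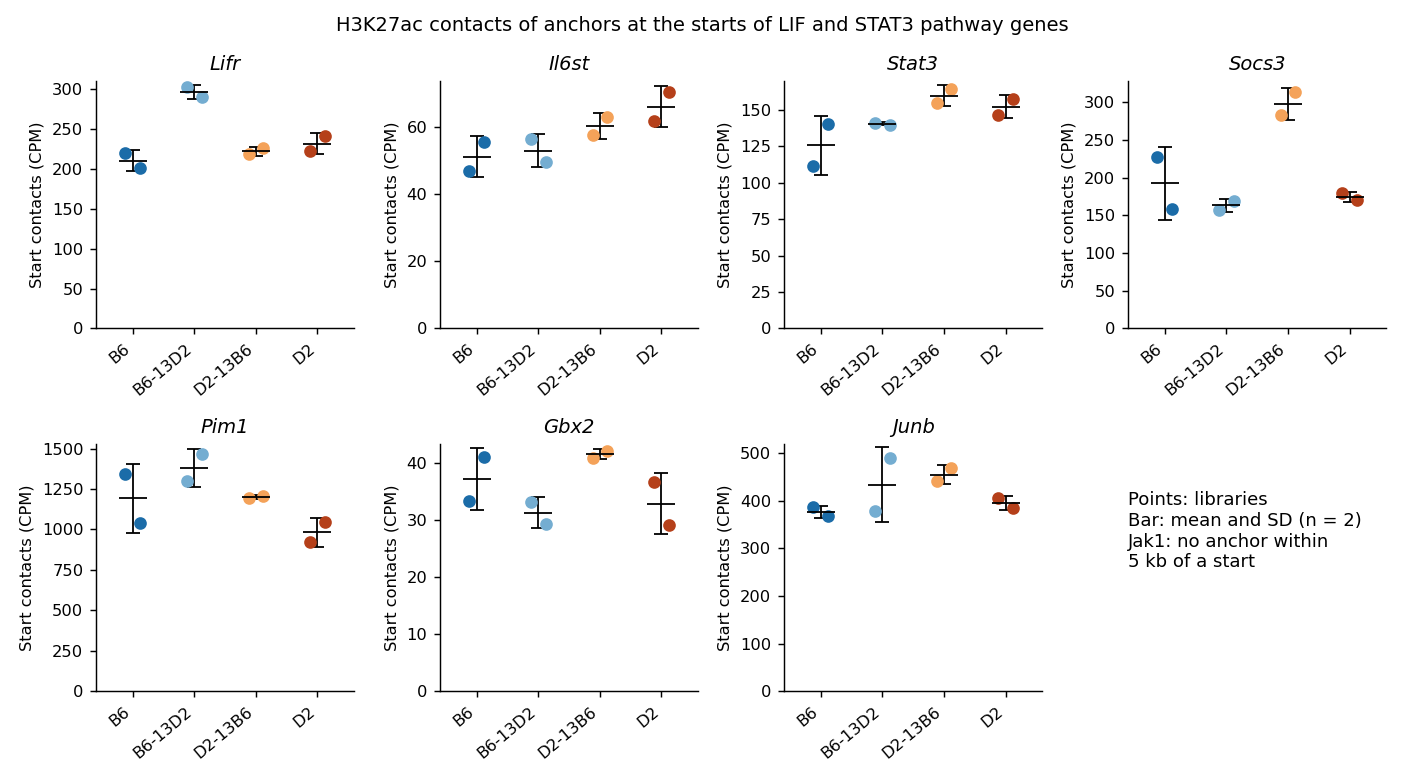
Start contacts of the 7 members with loops in each library (y axis, CPM with TMM factors, from 0), by line; points are libraries and bars the mean and SD of 2. Lifr is highest in both B6-13D2 libraries and Socs3 in both D2-13B6 libraries on this scale, and the 2 B6 libraries lie far apart at Socs3 and Pim1.

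Of the 81 tested member loops, 7 were called in at least 1 contrast, 4 at Lifr, 2 at Socs3 and 1 at Pim1. The share of all tested loops called in at least 1 contrast was not worked out. The count of 7 therefore does not set the members apart from other loops. The background effect called 4 (4.94%), all lower in D2 background, where 8.85% of all tested loops were called and 4.57% were called lower. The median over the 81 was 0.19 in log2, against 0.02 over all tested loops. It was 0.36 over the 20 on chromosome 11 and 0.06 over the other 61, and with each chromosome scaled separately 0.08 over the 81. In addition, 1 called loop was higher under the stricter filter and in the fits without B6 replicate 2 or D2-13B6 replicate 1. The interval effect called 2 (0.989% of all loops), and 1 loop each was called in B6-13D2 against B6 (0.879% of all loops), in the comparison of D2 with D2-13B6 (0.91%) and in the interaction (0.602%). In D2 against B6, edgeR called 0 (2.65% of all loops), with 10 at an unadjusted p under 0.05, and DESeq2 called 0. DESeq2 called none of the member loops in any contrast and gave no adjusted p for some of them, both Socs3 loops among these. The other 400 member loops did not reach the count minimum of the test, and were tested only with no filter.

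Lifr encodes the LIF-binding receptor subunit. Its start contacts were 220 and 201 CPM for B6, 302 and 290.5 CPM in B6-13D2, 218 and 226 CPM in D2-13B6, and 222 and 241 CPM in D2. Both B6-13D2 libraries lay above the other 6, which ranged from 201 to 241 CPM. Over the single 5-kb bin of the start they did not, at 77.2 and 64.2 CPM against 46.5 to 70.4 CPM in the other 6. The summed level in B6-13D2 (296 ± 8.32 CPM, SD, n = 2) exceeded that in B6 (210 ± 13.4 CPM) by a log2 fold change of 0.49 (SE 0.12, FDR 0.0063). D2 did not differ from D2-13B6 by the test (0.06, SE 0.12, FDR 0.842). The averaged interval effect was 0.27 (SE 0.085, FDR 0.0312) and was called in 4 of the 8 fits with 1 library left out, and in none without B6-13D2 replicate 1, either D2-13B6 library or D2 replicate 2 (0.25 to 0.29). It was not called with the replicate number as a block (FDR 0.0543), with loops inside 1 anchor left out (0.29, FDR 0.0629) or with DESeq2 (0.29, FDR 0.0873). The interaction, the test of whether the 2 backgrounds differ in this, was not called (-0.43, FDR 0.118).

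Lifr had 3 anchors, which separate its contacts. The start at chr15:7129559 lay in the middle anchor, chr15:7110001-7135000, and other annotated Lifr starts lay within 648 bp of an upstream anchor (chr15:7075001-7090000) and a downstream anchor (chr15:7155001-7170000). The loop from the start anchor to the upstream anchor held 42 and 22 counts in B6, 66 and 90 in B6-13D2, 72 and 80 in D2-13B6, and 41 and 34 in D2. Scaled to library size it was 36.2 ± 9.91 CPM in B6 and 67.2 ± 1.07 CPM in B6-13D2 (0.86, SE 0.233, FDR 0.0346), with no overlap between them. It was called in the 4 fits that left out a library of another line, and not without any 1 library of B6 or B6-13D2. Without B6 replicate 2 it was 0.63 (FDR 0.383), and it was not called with library totals alone (FDR 0.0536), with the trend of log ratio on abundance removed from each library (FDR 0.114) or with the replicate block (FDR 0.0517). Its background effect was 0.02 (FDR 0.965). The loop inside the start anchor held 723 counts and ranged from 66.4 to 100.4 CPM, the loop inside the upstream anchor held 53 counts, and the loop from the upstream to the downstream anchor held 56. None of these 3 was called.

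Contacts of the downstream anchor of Lifr were lower in D2 background. All its loops together held 63.0, 54.2, 66.2 and 64.1 CPM by plain library totals in the 4 libraries of B6 background, and 27.2, 34.4, 31.3 and 43.0 in those of D2 background. The 2 sets did not overlap. This sum was not tested, and it includes the loop to the start anchor and the inside loop given next. It is therefore not a result separate from theirs. The loop from the downstream anchor to the start anchor held 29, 15, 29 and 46 counts in B6 background. In D2 background it held 18, 24, 9 and 20, and it was lower there (-0.79, SE 0.232, FDR 0.0121). The loop inside the downstream anchor was lower too (-1.03, SE 0.354, FDR 0.0437), with 9.6 to 13.4 CPM in B6 background and 4.32 to 6.57 CPM in D2 background, without overlap. A sparse loop from the start anchor to chr15:6980001-6985000, near no annotated start, held 24 counts in B6 background and 7 in D2 background (-2.19, SE 0.691, FDR 0.023). With 1 library left out in turn, these 3 calls held in 4, 1 and 4 of 8 fits, in the order given. Without D2 replicate 1 the first was -0.53 (FDR 0.214), without D2-13B6 replicate 2 the second was -0.89 (FDR 0.171), and without B6 replicate 1 the third was -1.72 (FDR 0.342). The sum over all Lifr loops was not called in the background effect (-0.14, SE 0.085, FDR 0.242), but with loops inside 1 anchor left out it was lower in D2 background (-0.29, SE 0.102, FDR 0.0322).

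Il6st encodes gp130, and is the member on chromosome 13. Its start contacts were 46.9 and 55.5 CPM for B6, 56.6 and 49.5 in B6-13D2, 57.6 and 63.1 in D2-13B6, and 61.8 and 70.6 in D2. The 4 libraries of D2 background lay above the 4 of B6 background, by 0.29 in log2 (SE 0.144), which was not called (FDR 0.145). The interval effect was 0.09 (SE 0.144, FDR 0.777). Its most counted loops ran upstream, to chr13:112435001-112445000 (183 counts over 8 libraries), chr13:112405001-112420000 (139 counts) and chr13:112350001-112360000 (25 counts), none near a coding start. The smallest FDR over its 3 tested loops and the 6 contrasts was 0.154. Positions of the markers that bound the interval were not used here, so whether Il6st lies within it is not stated.

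Stat3 encodes the transcription factor of the pathway. Its start contacts were 111 and 140 CPM for B6, 141 and 140 in B6-13D2, 155 and 165 in D2-13B6, and 147 and 158 in D2. In chromosome 11 CPM the order changed: 1060 and 1430 in B6, 1335 and 1328 in B6-13D2, 1093 and 1141 in D2-13B6, and 1496 and 1573 in D2. On this scale both D2-13B6 libraries lay below both D2 libraries, while on the scale of all chromosomes these lines overlapped. Across all chromosomes the interval effect was 0.05 (SE 0.0994, FDR 0.831) and the background effect 0.24 (SE 0.0993, FDR 0.075). With each chromosome scaled separately the interval effect was 0.31 (SE 0.099, FDR 0.0419), called, and the background effect -0.03 (FDR 0.895). The inside loop of Stat3, with 341 counts, was likewise called in the interval effect only under that scaling (0.69, FDR 0.0221, against 0.46, FDR 0.265). Its 3 most counted distal loops reached anchors at Dnajc7 and Nkiras2 (84 counts, 322.5 kb away), at Acly and Ttc25 (80 counts, 390 kb away) and at chr11:100960001-100965000, near no start (65 counts, 27.5 kb away). None of its 10 tested loops was called with TMM factors over all chromosomes.

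Socs3 encodes the feedback inhibitor of the receptor complex. Its start contacts were 227 and 158.5 CPM for B6, 157 and 169.6 in B6-13D2, 283 and 313 in D2-13B6, and 179.6 and 170.2 in D2. Both D2-13B6 libraries lay above all others, and the B6 libraries lay far apart, at 227 and 158.5 CPM. The sum in D2 was lower than in D2-13B6 by -0.77 in log2 (SE 0.128, FDR 1.4e-05), with an interval effect of -0.51 (SE 0.0947, FDR 0.00017) and a background effect of 0.35 (SE 0.0949, FDR 0.00365). In B6 background, B6-13D2 against B6 was -0.25 and not called (FDR 0.321), with 0.04 (FDR 0.941) without B6 replicate 1 and -0.46 (FDR 0.0421) without B6 replicate 2. The interaction was -0.51 (FDR 0.0908), and was called without B6 replicate 1 (-0.79, FDR 0.00569). Without B6 replicate 2 the background effect was 0.23 and not called (FDR 0.0672). Within chromosome 11 the values were 2159 and 1619 chromosome 11 CPM in B6, 1487 and 1613 in B6-13D2, 2001 and 2171 in D2-13B6, and 1835 and 1699 in D2. D2-13B6 still lay above D2 and B6-13D2, and it overlapped B6. With each chromosome scaled separately no Socs3 sum was called, with -0.30 (FDR 0.157) in D2 against D2-13B6, -0.25 (FDR 0.0931) in the interval effect and 0.09 (FDR 0.55) in the background effect.

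The 2 Socs3 loops with the most counts went to the neighbouring gene Pgs1, which encodes a mitochondrial lipid synthesis enzyme. The loop to chr11:117995001-118015000, over the body of Pgs1, held 71 and 31 counts in B6, 36 and 55 in B6-13D2, 114 and 113 in D2-13B6, and 31 and 29 in D2. In CPM these were 57.1 ± 22.6, 38.8 ± 2.50, 82.3 ± 1.28 and 37.2 ± 0.882 (SD, n = 2). The D2-13B6 mean was highest, and the B6 libraries lay far apart. In chromosome 11 CPM the loop stood at 703 and 418 in B6, 364 and 393 in B6-13D2, 588 and 568 in D2-13B6, and 362 and 365 in D2. On this scale B6 replicate 1 lay above both D2-13B6 libraries, which still lay above D2 and B6-13D2. The interval effect on this loop was -0.87 (SE 0.162, FDR 8.4e-05) and remained called with each chromosome scaled separately (-0.63, FDR 0.0204). Without B6 replicate 1 it was -0.61 and not called (FDR 0.211). Against D2-13B6, D2 gave -1.14 (FDR 0.000164), and -0.70 (FDR 0.173) with chromosomes scaled separately. Without D2 replicate 1 it was -1.13 and not called (FDR 0.0562).

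The shorter loop, to the Pgs1 start at chr11:117985001-117990000, held 51 and 21 counts in B6, 25 and 38 in B6-13D2, 77 and 78 in D2-13B6, and 28 and 22 in D2. In chromosome 11 CPM, B6 replicate 1 (505) lay above the 2 D2-13B6 libraries (the higher at 397), which lay above the other 5 libraries (253 to 327). The interval effect on this loop was -0.74 (SE 0.185, FDR 0.0135), and -0.50 (FDR 0.245) with chromosomes scaled separately. That call held in 2 of 8 fits with 1 library left out, and without B6 replicate 1 the value was -0.45 (FDR 0.581). On the other side of Socs3, the loop to chr11:117930001-117940000, near no start, held 146 counts and was not called. The inside loop of Socs3 held 165 counts and was not called either. Summed over all partners, the 2 Pgs1 anchors themselves ran from 67.8 to 148 and from 138 to 279 CPM by plain library totals, with their highest values in D2-13B6 as at Socs3. In chromosome 11 CPM the highest value at both was that of B6 replicate 1, at 1120 against 1070 and 950 in D2-13B6, and at 2220 against 2010 and 1940.

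**Figure D3:**
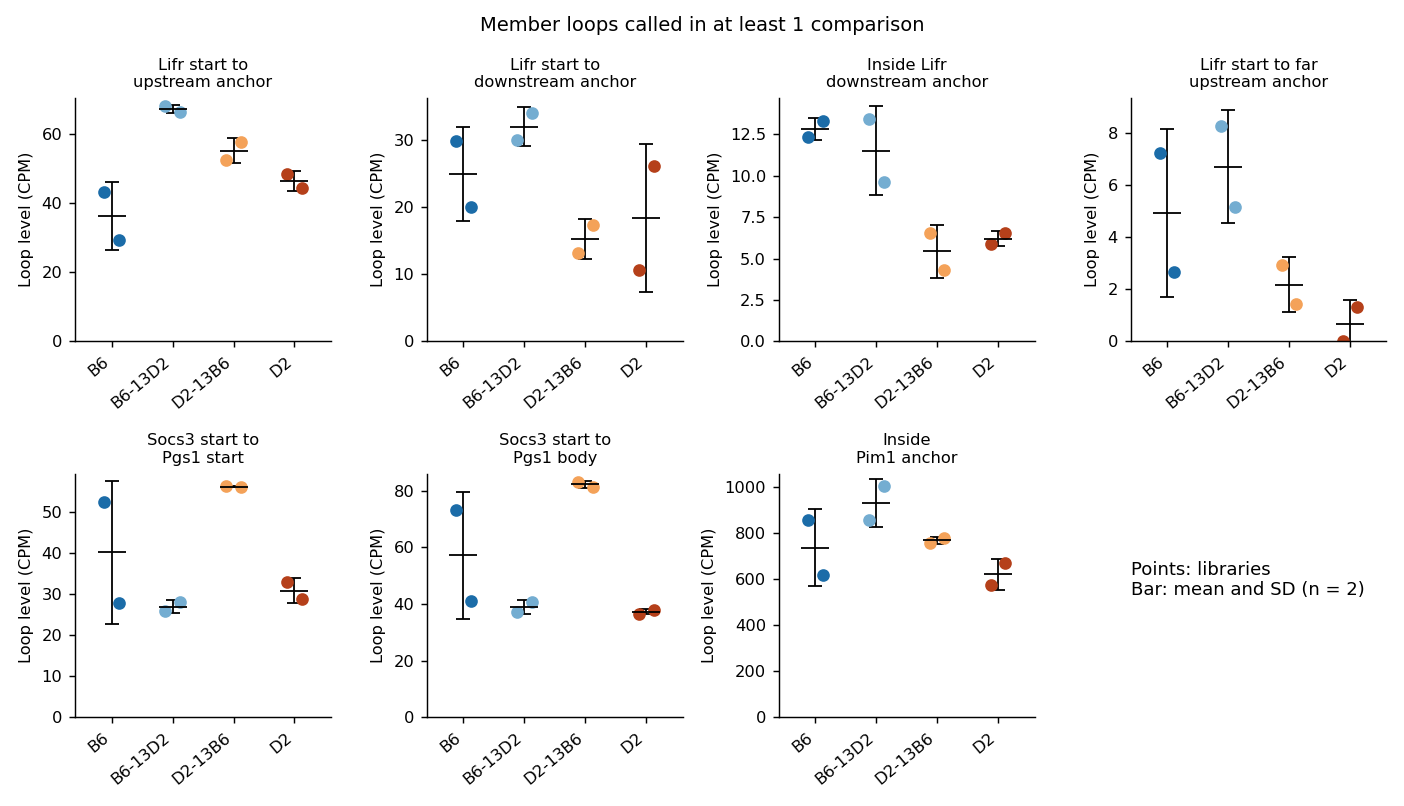
Level of each of the 7 called member loops in each library (y axes, CPM with TMM factors, from 0), by line; points are libraries and bars the mean and SD of 2. The loop inside the Lifr downstream anchor separates the backgrounds without overlap, and both Socs3 loops have their highest mean in D2-13B6 on this scale, with B6 split between high and low.

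**Figure D4:**
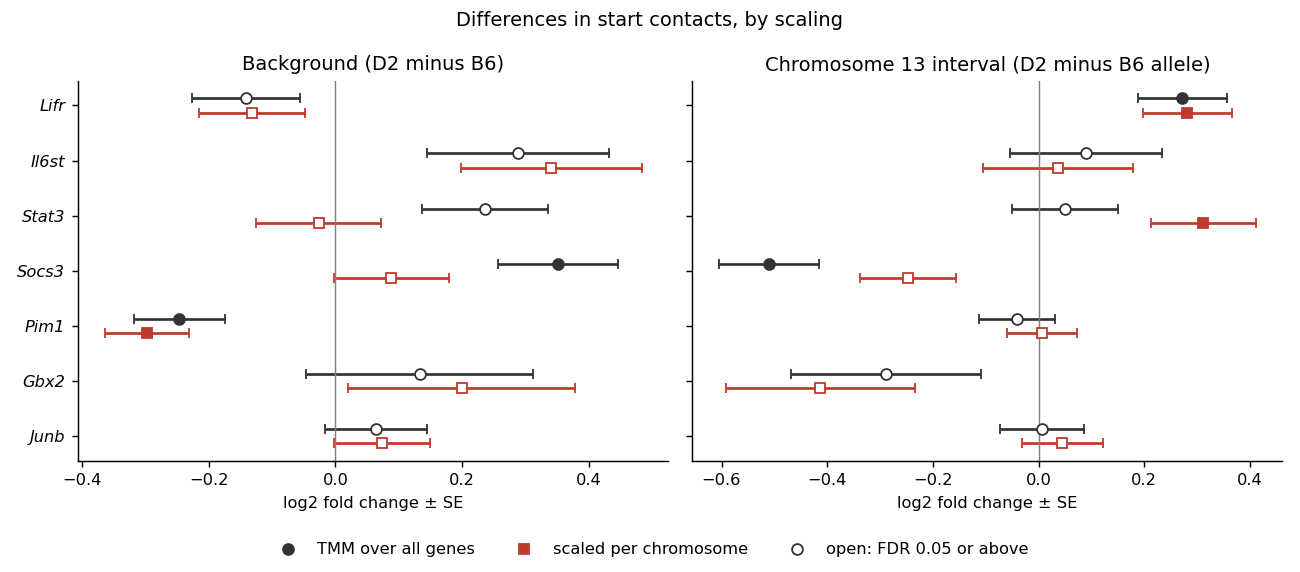
Log2 fold change of start contacts with its SE (x axes) for the background effect (left) and the interval effect (right), with TMM factors over all genes (circles) and with each chromosome scaled separately (squares); filled symbols have an FDR under 0.05. Stat3 and Socs3, on chromosome 11, move with the scaling, while Lifr (0.27 and 0.28 in the interval effect) and Pim1 (-0.25 and -0.30 in the background effect) are called under both.

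Pim1 encodes a serine/threonine kinase that STAT3 induces in stem cells. Its anchor, chr17:29430001-29500000, spans 70 kb, mostly upstream of the start at 29490753. The anchor also held or adjoined starts of AC163629.2, AC163635.1 and Gm26885, so its counts do not belong to Pim1 alone. The start contacts were 1344 and 1042 CPM for B6, 1298 and 1465 in B6-13D2, 1192 and 1207 in D2-13B6, and 919.9 and 1044 in D2. B6-13D2 and D2 did not overlap, and the B6 libraries lay on both sides of D2-13B6. The background effect was -0.25 (SE 0.0723, FDR 0.0078), and was not called without B6 replicate 1 (-0.17, FDR 0.0674), B6-13D2 replicate 2 (-0.20) or D2 replicate 1 (-0.22).

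The interaction at Pim1 was -0.50 (SE 0.145, FDR 0.0224). The D2 allele of the interval went with 0.21 more in B6 background (FDR 0.252) and with -0.29 in D2 background (FDR 0.0641), neither of them called alone. It was called in 3 of 8 fits with 1 library left out. Without B6 replicate 2 it was -0.32 (FDR 0.166), and with the trend of log ratio on abundance removed from each library it was -0.05 (FDR 0.899). It was also not called with library totals alone (-0.33, FDR 0.139), with the replicate block (FDR 0.0621) or with loops inside 1 anchor left out (-0.13, FDR 0.7).

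Contacts inside the anchor were the called loop of Pim1. With them left out, the background effect on the start contacts was -0.15 (FDR 0.159). The inside loop held 832 and 465 counts in B6, 833 and 1360 in B6-13D2, 1039 and 1081 in D2-13B6, and 486 and 513 in D2. Its level was 737 ± 169, 931 ± 103, 768 ± 14.3 and 621 ± 67.6 CPM in the same order, with a background effect of -0.27 (SE 0.0782, FDR 0.0112) and an interaction of -0.64 (SE 0.156, FDR 0.0117). Each of these 2 calls held in 3 of 8 fits with 1 library left out. Without B6 replicate 1 the background effect was -0.14 (FDR 0.35), and without B6 replicate 2 the interaction was -0.43 (FDR 0.274). The interaction was -0.07 (FDR 0.943) with the abundance trend removed, and was not called with library totals alone (-0.56, FDR 0.056) or with the replicate block (FDR 0.0628). Pairs of bins that included the start bin were 61.6 ± 11.9 CPM for B6, 76.1 ± 4.16 in B6-13D2, 81.2 ± 7.44 in D2-13B6 and 63.6 ± 13.3 in D2. By bin, the mean level in D2 background over that in B6 background was lowest at 50 kb upstream (0.663) and highest at 5 kb downstream (1.20). At the start it was 1.05. The ratio did not change steadily between them, with 0.953 at 35 kb, 0.744 at 15 kb, 1.10 at 10 kb and 0.826 at 5 kb upstream. These ratios are a description of 1 loop and were not tested by bin.

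**Figure D5:**
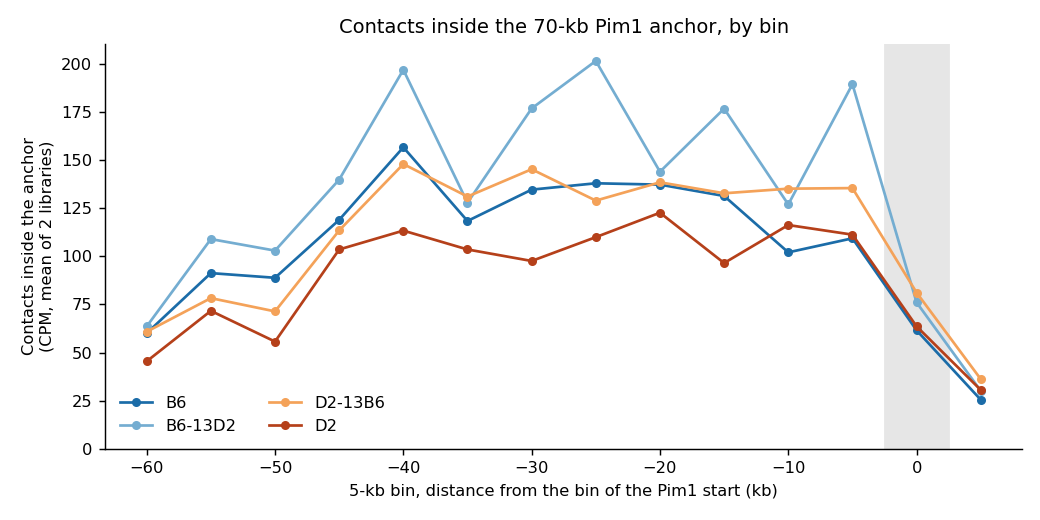
Contacts inside the Pim1 anchor summed per 5-kb bin (y axis, CPM, mean of 2 libraries) against the distance of the bin from the bin of the Pim1 start (x axis, kb; grey band, start bin), with 1 line per cell line. D2 lies below B6 from 60 to 15 kb upstream, and the 4 lines lie between 61.6 and 81.2 CPM at the start bin.

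None of the distal loops of Pim1 was called. The loop to the anchor of Cdkn1a, Srsf3 and Stk38, 415 kb away, held 744 counts, the most of any distal member loop at Pim1, at 89.8 ± 1.13 CPM for B6, 93.0 ± 3.27 in B6-13D2, 84.5 ± 1.30 in D2-13B6 and 86.3 ± 5.23 in D2. Cdkn1a encodes the cell cycle inhibitor p21. The next most counted distal loops reached Gm17657 (306 counts) and Mtch1 (304 counts).

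Gbx2 encodes a homeobox factor and target of STAT3 in stem cells. Its start contacts were 33.3 and 40.95 CPM for B6, 33.1 and 29.3 in B6-13D2, 40.8 and 42.1 in D2-13B6, and 36.6 and 29.0 in D2, with overlap between lines. The interval effect was -0.29 (SE 0.179, FDR 0.353) and the background effect 0.13 (SE 0.18, FDR 0.657). Its most counted loop ran 177.5 kb to chr1:89755001-89765000, near no start, with 8 and 5 counts in B6, 3 and 5 in B6-13D2, 15 and 15 in D2-13B6, and 2 and 4 in D2. The 4 libraries with the B6 allele had 6.64 to 10.95 CPM and those with the D2 allele 2.36 to 5.22 CPM, without overlap, and no Gbx2 loop was called in any contrast (smallest FDR 0.135, in the interval effect). Its inside loop held 36 counts. The next distal loops, to chr1:90515001-90535000 and chr1:89875001-89880000, held 22 and 20 counts and did not reach the count minimum of the test.

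Junb encodes a subunit of the AP-1 transcription factor. Its anchor, chr8:84965001-84995000, also held or adjoined starts of Hook2, Prdx2, Rnaseh2a and Gm49661, so these counts belong to Junb no more than to them. The sums were 386 and 367 CPM for B6, 378 and 489 in B6-13D2, 441 and 469 in D2-13B6, and 406 and 386 in D2. D2-13B6 lay above B6 and D2, and the B6-13D2 libraries lay at 378 and 489 CPM, with the other lines between or near them. The background effect was 0.06 (SE 0.0799, FDR 0.626) and the interval effect 0.01 (SE 0.0798, FDR 0.977). The interaction was -0.41 (FDR 0.11), and -0.49 (FDR 0.0369), called, with chromosomes scaled separately. Its inside loop held 1263 counts, and the most counted distal loop, with 891, reached Asna1, Tnpo2 and Trir. The next reached Dnase2a, Klf1 and Mast1 (231 counts) and Cacna1a, Ier2, Nacc1 and Trmt1 (220 counts). None of its 15 tested loops was called, with a smallest FDR of 0.0909.

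Of a list of 57 other genes of the pathway, 48 had tested start contacts. In the background effect 5 were called higher and 4 lower (18.8%, against 24.2% of all genes). In the interval effect 3 were called, all lower (6.25%, against 8.77%), where 5.05% of all genes were called lower. B6-13D2 against B6 called 1 higher and 2 lower (6.25%, against 5.7%), and D2 against B6 called 1 higher and 3 lower (8.33%, against 10.3%). The comparison of D2 with D2-13B6 called 5, all lower (10.4%, against 8.95%), where 6.79% of all genes were called lower. The interaction called 1 higher and 5 lower (12.5%, against 6.92%), where 5.39% of all genes were called lower. Of the 5 called in D2 against D2-13B6, Grb2, Lif and Osm lie on chromosome 11. With each chromosome scaled separately Grb2, an adaptor protein, was no longer called there (0.01, FDR 0.984) or in the interaction (-0.07, FDR 0.859), and Socs7 (FDR 0.593), Pias4 (FDR 0.104) and Stat4 (FDR 0.102) were no longer called in the background effect. The 3 of the interval effect were Lif, Osm and Sall4, a pluripotency factor. Lif encodes the ligand itself, and its start contacts on chromosome 11 were 178 ± 13.9 CPM for B6, 120 ± 0.192 in B6-13D2, 232 ± 2.47 in D2-13B6 and 117 ± 13.2 in D2. In each background the line with the D2 allele lay below the line with the B6 allele. The interval effect at Lif was -0.78 (SE 0.0968, FDR 4.6e-08), and -0.52 (FDR 0.000104) with chromosomes scaled separately. In chromosome 11 CPM, Lif stood at 1783 and 1713 in B6, 1133 and 1135 in B6-13D2, 1650 and 1593 in D2-13B6, and 1286 and 1070 in D2, again without overlap between alleles. Osm, which encodes the related ligand oncostatin M, gave -0.83 (FDR 0.00182) and -0.57 (FDR 0.0431). The Osm difference was called in the comparison of D2 with D2-13B6 (-1.50, FDR 1.6e-05) and not in B6 background, where B6 (40.1 ± 21.3 CPM) and B6-13D2 (36.5 ± 7.82 CPM) did not differ beyond their spread. The interaction at Osm was -1.34 (FDR 0.0148), and was not called with chromosomes scaled separately (-0.94, FDR 0.117). In the background effect, Myc and Klf4, both pluripotency factors, were higher in D2 background, by 0.44 (SE 0.101, FDR 0.00065) and 0.37 (SE 0.116, FDR 0.0146), and Sall4 was lower (-0.21, SE 0.0779, FDR 0.0449). Pim3, a relative of Pim1, was lower too (-0.44, SE 0.133, FDR 0.00953).

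Across the 8 libraries, the genes on other chromosomes whose start contacts followed 6 of the members most closely were found by Pearson correlation of log2 CPM among genes with a mean of at least 100 CPM. They were Ccdc163 and Mmachc for Lifr (both r = 0.981), Orc5 and Fnbp4 for Il6st (0.965 and 0.964), and Mief1 and Apobec3 for Socs3 (0.971 and 0.968). For Pim1 they were Wdtc1 and Rimbp3 (0.989 and 0.983), for Gbx2 Commd5 and Rpl8 (both 0.912), and for Junb Ap2m1 and Akt1s1 (0.921 and 0.907). Each pair ranked highest among 3822 to 4185 candidates and is given as a description, since the points share lines and depth.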

How the data were processed

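H3K27ac HiChIP was measured in 8 libraries. The deposited values were whole-number counts of read pairs per loop in 1 series table, and per pair of 5-kb bins in a file for each library, not normalized. Per the submitters' processing notes, the authors used BWA 0.7.18, SAMtools 1.19.2, edgeR 3.34.1 and the build mm10. The loop caller and the merging of bins are not given in the sources used here. Coordinates are 1-based on GRCm38, with starts from GENCODE M21 and sequence from RefSeq's GRCm38. Here, loops reaching 5 counts, and start contacts of coding genes reaching 10, in 2 or more libraries were tested with edgeR 4.0.16 in R 4.3.3, in a single fit of all libraries with TMM factors and a mean for each line. The scripts were tested on simulated data for the background effect. Of loops changed 2-fold, 35% were recovered, and of those changed 4-fold, 66%, with 9.01% of calls false. For start contacts these values were 85%, 100% and 7.5%. A loop that was not called may therefore still differ. Library totals are 737955 to 1425304, and small counts limit the precision of single loops. Read pairs carried no molecular identifiers. Replicates of each line differed by more than sampling noise (chi-square over degrees of freedom 1.05 to 1.20) and were kept apart. For each member, the text names its start contacts, its inside loop, its 3 distal loops with the most counts and any called loop. Other pathway genes were named only where called. Members and lists were chosen with earlier results of these data known. Alternatives covered scaling, the test (DESeq2 1.42.0), filters, the distance to the start, inside loops, the replicate block and each library left out. The number of value columns matching no sample was 0.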

Additional observations from a re-analysis of the deposited data

Results flagged for a closer look

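The response of Pim1 contacts to the interval differed between backgrounds by a test of that difference in the fit with TMM factors, and not under several other settings. For its start contacts, the interval effect of the D2 background less that of the B6 background was -0.50 in log2 (value -0.499, SE 0.145, FDR 0.0224), and for the loop inside its anchor -0.64 (value -0.642, SE 0.156, FDR 0.0117). With the abundance trend removed they were -0.05 (FDR 0.899) and -0.07 (FDR 0.943), with the replicate block the FDR values were 0.0621 and 0.0628, and without B6 replicate 2 they were 0.166 and 0.274. With loops inside 1 anchor left out the start contacts gave -0.13 (FDR 0.7). Both B6 libraries enter these differences, at 1344 and 1042 CPM for the start contacts, and their part in the result was not tested beyond leaving each one out.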

How the results depend on the processing

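Counts of members called in the 6 contrasts moved with the settings as follows, and apart from the scaling per chromosome and the inside loops the cause was not tested. With library totals alone, called loops fell to 0 in B6-13D2 against B6 and in the interaction, and called start contacts to 0 in the interaction. With the abundance trend removed these 3 were also 0, and D2 against B6 had 1 called start contact (Pim1). Scaling per chromosome gave 1 in D2 against B6 (Pim1), 0 loops and 0 start contacts in D2 against D2-13B6, 1 start contact in the background effect and 2 in the interaction. DESeq2 called 0 member loops in every contrast, and 1 start contact in the interval effect, without Lifr. It gave no adjusted p for several loops. Without a filter, called loops were 0 in B6-13D2 against B6, 1 in the interval effect, 0 in the background effect and 2 in the interaction. The stricter filter gave 2 loops in D2 against D2-13B6. With the start inside the anchor, D2 against B6 had 1 start contact. Without inside loops there were 1 start contact in the interval effect, Lifr (-0.29, FDR 0.0322) in place of Pim1 among the start contacts called in the background effect, 2 loops in the background effect and 0 of either in the interaction. With only the lines compared, B6-13D2 against B6 had 0 loops, and D2 against D2-13B6 had 2 loops and 2 start contacts. GENCODE basic transcripts, chosen after seeing the data, moved no count past 1.5 times. Leaving out both D2-13B6 libraries, also chosen then, moved none past it in D2 against B6 and B6-13D2 against B6. The other contrasts use D2-13B6 and could not be fitted without it, so this setting says nothing about them.

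Same-numbered libraries shared only a number: over the 6 pairs of lines, deviations from the line means correlated at -0.185 to 0.0353. With the replicate number as a block, called loops were 0 in B6-13D2 against B6 and in the interaction, start contacts were 1 in the interval effect and 0 in the interaction, and the Pim1 interaction was -0.50 (FDR 0.0621).

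These log2 values, none of them called in the fit reported, changed sign: Pim1 in D2 against D2-13B6 (0.0085) and in the interval effect (0.0336) with the trend removed, Pim1 interval (0.0065) and Stat3 background (-0.0265) with scaling per chromosome, and, without inside loops, Pim1 in B6-13D2 against B6 (-0.0513), Stat3 interval (-0.0879) and Junb interval (-0.0211).

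With each library left out in turn, called loops ran from 0 to 2 in D2 against B6, 0 to 1 in B6-13D2 against B6, 0 to 2 in D2 against D2-13B6, 0 to 2 in the interval effect, 0 to 4 in the background effect and 0 to 2 in the interaction. Called start contacts ran from 0 to 1, 1 to 2, 1 to 2, 1 to 2, 1 to 2 and 0 to 2 in the same order. Values that changed sign ran from -0.3759 to 0.1277 (Socs3, D2 against B6) and -0.46 to 0.0437 (Socs3, B6-13D2 against B6), with the highest value without B6 replicate 1 in both. In the interval effect they ran from -0.0283 to 0.1435 for Stat3, -0.1103 to 0.0662 for Pim1 and -0.0986 to 0.0875 for Junb, and in the background effect from -0.0172 to 0.1689 for Junb. The Lifr value in B6-13D2 against B6 (0.4365 to 0.5522) and the Socs3 values in D2 against D2-13B6 (-0.8388 to -0.6921) and in the interval effect (-0.6037 to -0.3519) stayed called each time. Depth limits single loops: the 3 Lifr loops called in the background effect rest on 31 to 190 counts over 8 libraries.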
